A study of Mus musculus with 4 samples.

Results

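The citrate cycle enzymes and the enzyme of itaconate synthesis were described through 9 genes, Cs, Idh1, Idh2, Idh3a, Ogdh, Fh1, Mdh2, Pcx and Acod1, of 21834 genes in the deposited count table. The 9 genes were selected on their differences between the same 4 libraries, so those differences are given below as a description, with no test. RNA was sequenced from mouse bone marrow derived monocytes that had been induced with RANKL, the cytokine that turns these precursors into bone-resorbing osteoclasts, for 3 days. The groups were 2 libraries labelled Nat10 conditional knockout (cKO) and 2 labelled wild type (WT), both after the same osteoclast differentiation and both washed with cycloheximide at 100 μg/mL before lysis. The sources used here do not give the Cre driver, the deleted exons, or the strain, age and sex of the mice. Nor do they say that replicate libraries come from different mice, and the spread between them may be technical.

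The citrate cycle oxidises the acetyl group of acetyl-CoA in the mitochondrial matrix and passes the electrons to the respiratory chain. Acod1, also known as Irg1, is induced in activated macrophages and diverts cis-aconitate, the intermediate between citrate and isocitrate, into itaconate, which inhibits succinate dehydrogenase and limits inflammatory signalling. Osteoclasts are rich in mitochondria, and oxidative metabolism increases as precursors differentiate. Of the 9 genes, Idh1 encodes a cytosolic and peroxisomal enzyme, Pcx the anaplerotic enzyme that makes oxaloacetate from pyruvate, and Acod1 the itaconate branch. The other 6 encode enzymes or subunits of the mitochondrial cycle or its NADP-dependent side reaction.

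Library depth lay between 10037338 and 14097638 counts, and 11448 genes were tested. Nat10, the targeted gene, stood at 15.1 ± 1.12 CPM in Nat10 cKO and 17.7 ± 1.27 CPM in WT (SD, n = 2 each), a log2 fold change of -0.24 (edgeR adjusted p = 0.263). The names Nat10 cKO and WT below therefore stand for the labels alone. CPM are counts on a per-million scale, with library sizes adjusted by TMM factors, and fold changes are log2 values, Nat10 cKO over WT. The osteoclast genes Acp5, Ctsk and Mmp9 had at least 8244 counts in every library. In bulk RNA, fewer cells of a type and less RNA per cell cannot be told apart.

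The DNA before the start sites was not used in choosing the genes, and there Acod1 had fewer CpG dinucleotides than the other members with a window. RefSeq windows of 250 bases (GRCm38.p6, a build other than that of the counts) matched 8 of the 9 genes, with 15 windows in all. Idh3a had no window. The Acod1 window had 44.4% G and C and 2 CpG dinucleotides, against a median of 52.4% and 6 over 32851 windows of mouse genes, and 29.0% of all windows had as few CpG or fewer. The other 14 windows of these genes had 4 to 35 CpG. Shown are the Acod1 and Idh2 windows and a Pcx window. Idh2 and Pcx were the other genes with the largest differences in each direction. The stretches end before the first GENCODE M21 exon of any gene and are written 5′ to 3′ on the gene's strand, with CpG in capitals. They lie at chr14:103046762-103046976 (plus strand), chr7:80115393-80115600 (minus strand) and chr19:4510222-4510471 (plus strand).
Acod1: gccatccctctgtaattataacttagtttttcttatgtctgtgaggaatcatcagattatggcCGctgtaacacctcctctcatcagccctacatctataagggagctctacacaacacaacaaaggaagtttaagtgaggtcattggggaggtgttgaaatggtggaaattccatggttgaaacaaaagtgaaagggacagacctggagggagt
Idh2: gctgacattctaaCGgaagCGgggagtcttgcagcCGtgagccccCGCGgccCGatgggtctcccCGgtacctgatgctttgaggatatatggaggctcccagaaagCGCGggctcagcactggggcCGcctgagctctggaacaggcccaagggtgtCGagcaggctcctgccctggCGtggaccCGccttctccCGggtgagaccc
Pcx: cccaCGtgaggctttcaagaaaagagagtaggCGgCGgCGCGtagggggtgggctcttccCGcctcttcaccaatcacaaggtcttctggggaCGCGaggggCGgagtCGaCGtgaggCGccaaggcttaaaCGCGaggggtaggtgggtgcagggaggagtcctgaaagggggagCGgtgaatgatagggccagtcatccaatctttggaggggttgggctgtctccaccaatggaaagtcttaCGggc

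The printed stretches hold 1 CpG for Acod1, 14 for Idh2 and 16 for Pcx. Another Pcx window, at chr19:4594069-4594318 and not shown, had 4 CpG, and 44.4% of all windows had as few or fewer. The Acod1 window was also the only one of the 15 with the letters TATAAA (in either direction), which 12.4% of all windows hold. They start 28 bases before the RefSeq start, inside an exon in GENCODE that begins further upstream. Whether that exon belongs to Acod1 was not checked. For the windows shown, bases just after the RefSeq start matched a GENCODE transcript of the gene for Pcx but not for Acod1 or Idh2. The letters GGNNNTTCC, a loose spelling of the kappa B element that was chosen after the window was seen, occur in 5 of the 15 windows, of Acod1 (85 bases before the start), Cs, Idh1, Mdh2 and Pcx, and in 15.7% of all windows. The stricter spelling GGGNNTTCC occurred in 1 of the 15 windows, for Idh1, and in 4.98% of all. The E-box CACGTG occurred in 4 windows, of Ogdh and Pcx, and in 6.02% of all. GCATGCGC, the letters of the NRF1 element, occurred in 2 windows of Ogdh and in 2.26% of all. Those 2 windows overlap, and the E-box and NRF1 letters in them are the same bases, counted in each. The letters TNAAGGTCA (the ERR half-site, in 1.14% of all windows), GAAANNGAA (7.13%), TTCNNNGAA (7.02%) and TGANTCA (6.75%) were in none of the 15. Both strands were searched for each spelling, and the strict kappa B spelling is contained in the loose one. A match is a string of letters and not a measured binding site.

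**Figure D1:**
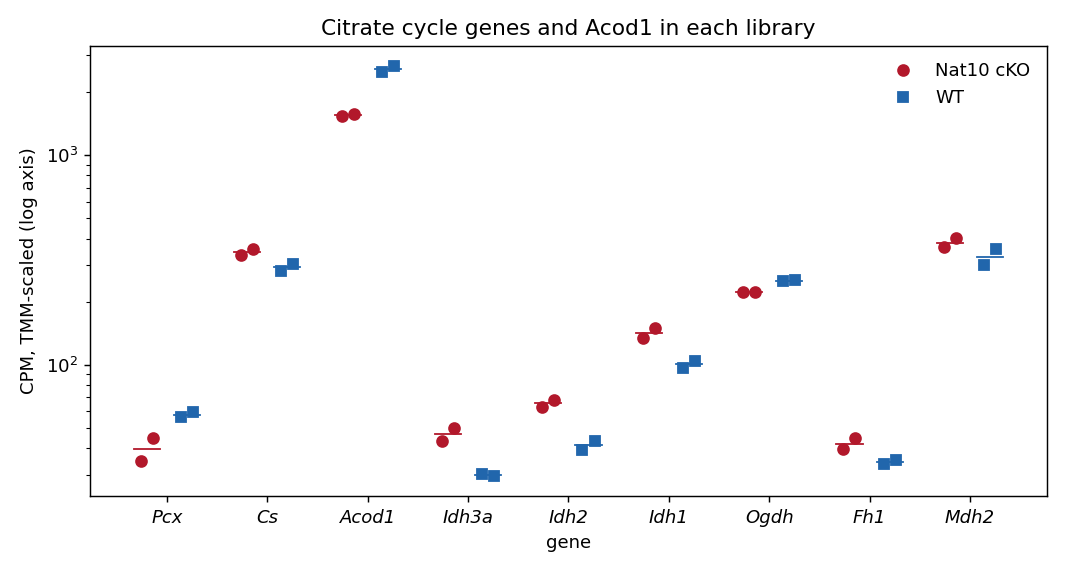
CPM of the 9 genes in each library on a log axis, with Nat10 cKO libraries as circles and WT libraries as squares, and short lines at the group means. Acod1 stands far above the others in all 4 libraries, and the groups do not overlap for any of the 9 genes.

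Acod1 was the most abundant of the 9 transcripts and was lower in Nat10 cKO. Acod1 (ENSMUSG00000022126, chromosome 14, 103284413 to 103294009 on GRCm39) gave 17885 and 22425 counts for Nat10 cKO and 24490 and 33783 counts for WT. These are 1542 and 1562 CPM in Nat10 cKO and 2501 and 2646 CPM in WT, so both knockout libraries lay below both WT libraries. The group means were 1552 ± 14.01 CPM in Nat10 cKO and 2573 ± 103 CPM in WT (SD, n = 2 each), a log2 fold change of -0.73 (SE 0.0921), or -39.7%. By mean CPM over the 4 libraries together, Acod1 was 41st of the 11448 genes. Its log2 fold change was at the 5.005 percentile of all genes tested, counted from the lowest. Acod1 alone took 0.158% and 0.159% of all counts in Nat10 cKO and 0.244% and 0.259% in WT, and it made up 55.5% and 53.8% of the counts of the 9 genes in Nat10 cKO and 69.7% and 69.1% in WT.

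Pcx, also lower in Nat10 cKO, encodes pyruvate carboxylase (ENSMUSG00000024892, chromosome 19, 4560500 to 4671780). Pcx stood at 34.9 and 44.9 CPM in Nat10 cKO and 56.5 and 59.3 CPM in WT. The groups did not overlap, but the knockout libraries were further from each other than the WT libraries. Its log2 fold change was -0.53 (SE 0.124), with -0.73 without Nat10 cKO replicate 2 and -0.38 without Nat10 cKO replicate 1.

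The 3 isocitrate dehydrogenase genes were higher in Nat10 cKO. Idh2, the mitochondrial NADP-dependent enzyme (ENSMUSG00000030541, chromosome 7, 79744594 to 79765140), stood at 63.2 and 68.0 CPM in Nat10 cKO and 39.4 and 43.5 CPM in WT, a log2 fold change of 0.66 (SE 0.111). Idh3a, the catalytic alpha subunit of the NAD-dependent enzyme that runs the cycle (ENSMUSG00000032279, chromosome 9, 54493618 to 54511945), stood at 43.4 and 49.9 CPM in Nat10 cKO and 30.2 and 29.6 CPM in WT, a log2 fold change of 0.64 (SE 0.120). Idh1 (ENSMUSG00000025950, chromosome 1, 65197775 to 65225659) stood at 134 and 150 CPM in Nat10 cKO and 96.3 and 105 CPM in WT, a log2 fold change of 0.50 (SE 0.104). All 3 were above WT in both knockout libraries. There were 2.13 and 2.21 counts of Idh1 for each count of Idh2 in Nat10 cKO and 2.44 and 2.41 in WT, a ratio that library scaling does not touch.

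Cs, Fh1 and Mdh2 were higher by smaller amounts. Cs, citrate synthase, which joins acetyl-CoA to oxaloacetate (ENSMUSG00000005683, chromosome 10, 128173603 to 128198348), stood at 333 and 358 CPM in Nat10 cKO and 279 and 303 CPM in WT, a log2 fold change of 0.25 (SE 0.0947). Fh1, fumarase, which hydrates fumarate to malate (ENSMUSG00000026526, chromosome 1, 175427940 to 175453201), stood at 39.6 and 44.6 CPM in Nat10 cKO and 33.8 and 35.01 CPM in WT, a log2 fold change of 0.29 (SE 0.118). Mdh2, the mitochondrial malate dehydrogenase that closes the cycle (ENSMUSG00000019179, chromosome 5, 135807334 to 135819252), stood at 364 and 401 CPM in Nat10 cKO and 299.5 and 355 CPM in WT, a log2 fold change of 0.23 (SE 0.102). The lower knockout library of Mdh2 was only just above the higher WT library, and the value of Mdh2 ranged from 0.10 without WT replicate 1 to 0.34 without WT replicate 2.

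Ogdh, the substrate-binding first component of the oxoglutarate dehydrogenase complex (ENSMUSG00000020456, chromosome 11, 6241633 to 6306642), was the smallest difference of the 9. Ogdh stood at 222 and 224 CPM in Nat10 cKO and 251 and 253 CPM in WT, a log2 fold change of -0.18 (SE 0.0925). The libraries of each group lay close together on this scale, at 223 ± 0.916 CPM in Nat10 cKO and 252 ± 1.38 CPM in WT (SD, n = 2 each), and the groups did not overlap.

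Over the 9 genes, 6 were higher and 3 lower, with a median log2 fold change of 0.25 beside 0.01 over all genes tested. The CPM of the groups did not overlap for all 9, 6 of them higher and 3 lower in Nat10 cKO, where 32.3% of all genes tested were higher without overlap and 31.3% lower without overlap. In the edgeR quasi-likelihood fit, Idh1, Idh2 and Idh3a were past an adjusted p of 0.05 as higher and Pcx and Acod1 as lower. That is 5 of 9 where 28.8% of all genes were called, 14.4% higher and 14.4% lower, and since the genes were selected on this comparison nothing is read from it. The value of Idh1 was no longer past the threshold without WT replicate 1 (0.43), and that of Pcx without WT replicate 2 (-0.51), which left 4 of 9 in each case. Cs, Fh1 and Mdh2 were past it as well, 8 of 9 in all, with upper-quartile factors, with library size only and without Nat10 cKO replicate 1. The 1652 higher and 1650 lower genes of all those tested became 2247 and 1110 with upper-quartile factors, and 2026 and 1252 with library size only. All 9 passed the filter on low counts.

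**Figure D2:**
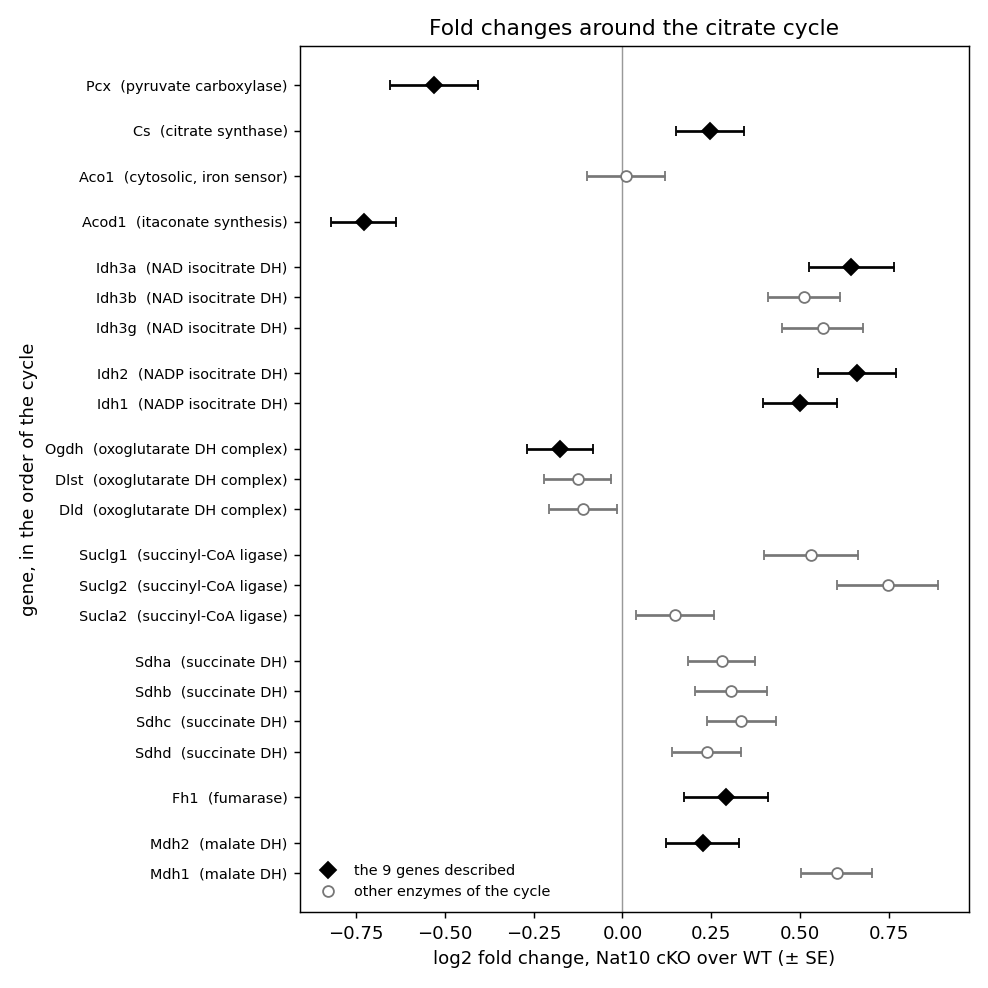
Log2 fold change (Nat10 cKO over WT) ± SE of enzyme genes in the order of the cycle (DH, dehydrogenase), from the edgeR fit of 2 libraries per group, with the 9 genes as filled diamonds and the other enzymes as open circles. The 3 subunits of NAD-dependent isocitrate dehydrogenase stand at 0.51 to 0.64, and the 3 genes of the oxoglutarate dehydrogenase complex at -0.18 to -0.11.

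The rest of the cycle was higher in Nat10 cKO or did not pass the test. Of 15 other enzyme genes of the cycle, 14 were tested, 9 rose, 0 fell and 5 did not pass, with a median log2 fold change of 0.30. Over all genes tested, 14.4% were called higher and 14.4% lower. These are the genes that the selection of the 9 left over, so their count is a description of the pathway and not an independent sample. Without WT replicate 1 the edgeR test called 5 of them and without WT replicate 2 it called 4, all higher. The deposited annotation assigns 32 genes to the citrate cycle pathway, 24 of them outside the 9, and of the 19 tested among those 24, 11 rose and 0 fell. Those 11 are the 9 enzyme genes just counted with Pdha1 and Acly, which are on lists below. They are therefore not a separate result.

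At the isocitrate step, the genes of the beta and gamma subunits that partner Idh3a rose. Idh3b stood at 103 and 104 CPM in Nat10 cKO and 73.0 and 72.4 CPM in WT (log2 fold change 0.51, SE 0.101, edgeR adjusted p = 0.000838). Idh3g stood at 52.2 and 59.0 CPM in Nat10 cKO and 36.4 and 38.8 CPM in WT (0.56, SE 0.115, edgeR adjusted p = 0.0011). For both genes the call held with each library left out in turn. Aco1, a cytosolic enzyme that doubles as an iron sensor, was at 0.01 (edgeR adjusted p = 0.963).

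The fitted values of the oxoglutarate dehydrogenase genes lay below 0. Dlst, its succinyltransferase core, stood at 207 ± 0.269 CPM in Nat10 cKO and 226 ± 2.24 CPM in WT (log2 fold change -0.13, edgeR adjusted p = 0.343), and Dld, the lipoamide dehydrogenase shared with other complexes, at 154 ± 3.62 CPM in Nat10 cKO and 167 ± 6.87 CPM in WT (-0.11, edgeR adjusted p = 0.433). Neither passed, and both lay on the same side as Ogdh. With upper-quartile factors, fold changes over all genes moved up by a median of 0.098, close to the size of the Dlst and Dld values. Counted within each library, there were 0.195 and 0.223 reads of Idh3a per read of Ogdh in Nat10 cKO and 0.121 and 0.117 in WT. That pair was chosen after the values were seen. Ogdhl, a paralog of Ogdh, had 4 to 8 counts per library and was not tested.

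At the succinyl-CoA ligase, the shared alpha subunit gene Suclg1 rose by 0.53 (SE 0.132, edgeR adjusted p = 0.00538). Dropping WT replicate 2 ended this call (0.45). Suclg2, the beta subunit of the GTP-forming enzyme, rose by 0.75 (27.3 ± 2.91 CPM in Nat10 cKO and 16.2 ± 0.294 CPM in WT, edgeR adjusted p = 0.000595). Sucla2, the beta subunit of the ATP-forming enzyme, was at 0.15 (50.4 ± 1.63 CPM in Nat10 cKO and 45.6 ± 2.73 CPM in WT, edgeR adjusted p = 0.351). The difference between these fold changes was not tested. There were 0.597 and 0.491 counts of Suclg2 per count of Sucla2 in Nat10 cKO and 0.338 and 0.377 in WT, a pair that was also chosen after the values were seen.

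Succinate dehydrogenase, the target of itaconate, has 4 subunit genes, of which 3 rose and Sdhd did not pass (0.24, edgeR adjusted p = 0.0795). Sdha, the flavoprotein, rose by 0.28, Sdhb, the iron-sulfur protein, by 0.31 and Sdhc, a membrane anchor, by 0.33, with edgeR adjusted p-values of 0.0332, 0.0288 and 0.0150. Without WT replicate 1 these calls ended (0.22, 0.25 and 0.34 for Sdha, Sdhb and Sdhc), and so they did without WT replicate 2 (0.33, 0.35 and 0.31). Those of Sdha and Sdhb also ended in DESeq2 (0.27 and 0.29) and without Nat10 cKO replicate 2 (0.25 and 0.23). Mdh1, the cytosolic malate dehydrogenase of the malate-aspartate shuttle, rose by 0.60 (213 ± 16.6 CPM in Nat10 cKO and 140 ± 9.78 CPM in WT, edgeR adjusted p = 0.000186), and its call held with each library left out. The counts of Mdh1 were 0.554 and 0.562 of those of Mdh2 in Nat10 cKO and 0.446 and 0.416 in WT, again a pair chosen after the values were seen.

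**Figure D3:**
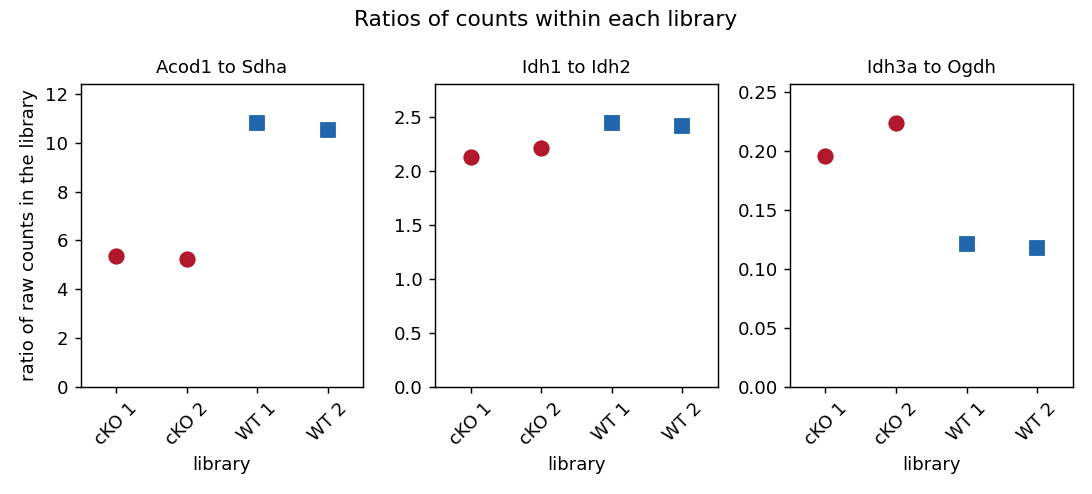
Ratio of raw counts in each library for Acod1 to Sdha, Idh1 to Idh2 and Idh3a to Ogdh, each panel with its own axis from 0, with Nat10 cKO libraries as circles on the left and WT libraries as squares on the right. Acod1 to Sdha stands at 5.37 and 5.23 in Nat10 cKO and 10.8 and 10.5 in WT, and of these 3 pairs Idh3a to Ogdh is higher in Nat10 cKO.

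Set against Sdha, the catalytic subunit of the enzyme that itaconate inhibits, Acod1 showed a larger difference than on its own. This follows from Sdha being itself higher in Nat10 cKO (log2 fold change 0.28). There were 5.37 and 5.23 counts of Acod1 for each count of Sdha in Nat10 cKO and 10.8 and 10.5 in WT, a difference in the mean log2 ratio of -1.01. The SD of the log2 ratio was 0.0265 in Nat10 cKO and 0.0255 in WT. Leaving out each library in turn moved the difference between -1.03 and -0.99.

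Per length of transcript, Acod1 stood highest of the 9 genes in each group. Reads per kilobase of merged exons, scaled to the same sum in every library (the TPM scale), averaged 1724 ± 58.5 for Acod1 in Nat10 cKO and 2873 ± 75.3 in WT (SD, n = 2 each). The next of the 9, Mdh2, had 313 ± 7.80 in Nat10 cKO and 269 ± 28.4 in WT, so Acod1 was 5.52 times Mdh2 in Nat10 cKO and 10.7 times in WT. On this scale the order in Nat10 cKO was Acod1, Mdh2, Cs, Idh1, Ogdh, Idh2, Fh1, Idh3a and Pcx, and in it only Idh3a (25.7 and 27.8) and Pcx (22.1 and 26.7) overlapped as neighbours. In WT the order was Acod1, Mdh2, Cs, Ogdh, Idh1, Idh2, Pcx, Fh1 and Idh3a, with no overlap between neighbours. Idh1 stood above Ogdh in Nat10 cKO, with 149 ± 5.35 against 119 ± 4.62, and below it in WT, with 106 ± 4.96 against 135 ± 1.11. Pcx was the lowest in Nat10 cKO, at 24.4 ± 3.29, and above Fh1 and Idh3a in WT, at 35.7 ± 0.741. Lengths came from GENCODE M21, a release for GRCm38, and not from the annotation behind the counts.

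**Figure D4:**
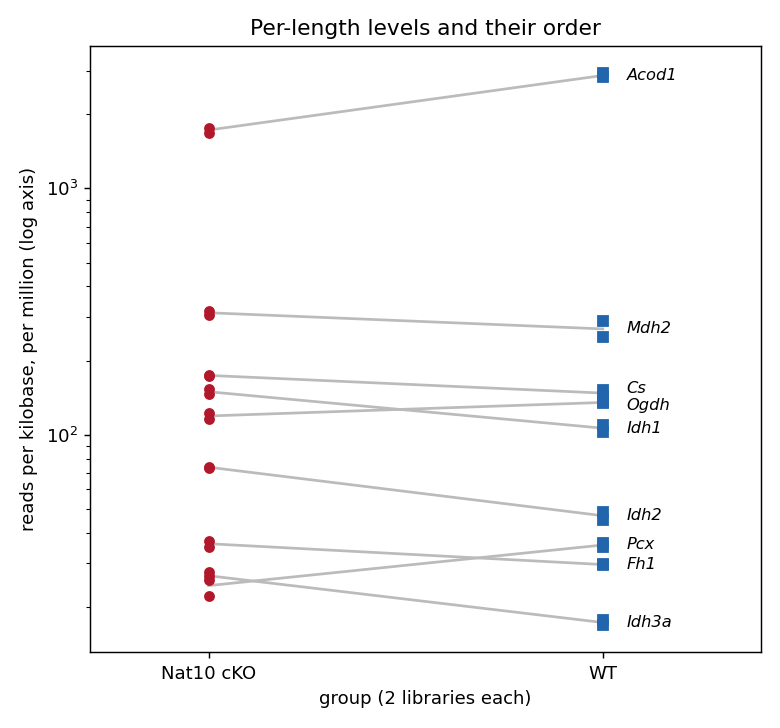
Reads per kilobase of merged exons, scaled to the same sum in every library (the TPM scale), on a log axis for the 9 genes, with the 2 Nat10 cKO libraries on the left, the 2 WT libraries on the right and lines between group means. Lines for Idh1 and Ogdh cross, and the line for Pcx crosses those for Fh1 and Idh3a.

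Among genes for the entry of pyruvate and its control, most of those called higher in Nat10 cKO were regulators of pyruvate dehydrogenase. Of the carrier and complex genes, only Mpc2 and Pdha1 were called. Of 13 genes tested, 7 rose, 1 fell and 5 did not pass (median log2 fold change 0.36), where 14.4% of all genes tested were called higher and 14.4% lower. Mpc2, a subunit of the mitochondrial pyruvate carrier, rose by 0.62 (43.2 ± 1.63 CPM in Nat10 cKO and 28.0 ± 2.18 CPM in WT, edgeR adjusted p = 0.000686), and its partner Mpc1 was at 0.18 (edgeR adjusted p = 0.323). Pdha1, the catalytic alpha subunit of pyruvate dehydrogenase, rose by 0.36 (edgeR adjusted p = 0.0105), while Pdhb (0.05), Dlat (0.22) and Pdhx (-0.05) did not pass. All 4 kinases that switch the complex off rose, Pdk1 by 0.43, Pdk2 by 0.75, Pdk3 by 0.70 and Pdk4 on few counts, with 10 and 18 in Nat10 cKO and 3 and 2 in WT (edgeR adjusted p = 0.0286). Of the phosphatases that switch it on, Pdp1 rose by 0.42 and Pdp2 fell by 0.43, with edgeR adjusted p-values of 0.0369 and 0.0451.

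Those counts changed with single libraries. In the pyruvate list the edgeR test called 3 genes once WT replicate 1 was dropped, and 4 once either WT replicate 2 or Nat10 cKO replicate 2 was dropped. The count in DESeq2 was 5. The calls of Mpc2 and Pdk2 held with each library left out. That of Pdk3 ended without Nat10 cKO replicate 2 (0.49), and those of Pdha1 and Pdk1 without WT replicate 1 (0.33 and 0.42) or WT replicate 2 (0.38 and 0.44). Those of Pdk4 and Pdp1 ended with any library left out and in DESeq2, with Pdp1 at 0.38 to 0.46, and that of Pdk4 also with no filter on low counts. That of Pdp2 ended without Nat10 cKO replicate 2 (-0.30) or WT replicate 1 (-0.29), in DESeq2 (-0.44), with upper-quartile factors (-0.33), with library size only (-0.36) and with a minimum mean of 10 CPM (-0.39).

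Genes that fill, drain or carry the intermediates of the cycle mostly did not pass the test, and nor did most of all genes tested. Of 18 genes, 15 were tested, 2 rose, 1 fell and 12 did not pass (median log2 fold change 0.09), where 14.4% of all genes tested were called higher and 14.4% lower. Got2, the mitochondrial aspartate aminotransferase, rose by 0.80 (101 ± 7.35 CPM in Nat10 cKO and 57.9 ± 0.196 CPM in WT, edgeR adjusted p = 1.5e-05) and its cytosolic counterpart Got1 was at 0.09 (edgeR adjusted p = 0.573). Acly, which splits citrate in the cytosol, rose by 0.30 (edgeR adjusted p = 0.0345) and Gpt2, the mitochondrial alanine aminotransferase, fell by 0.40 (edgeR adjusted p = 0.0236). The citrate carrier Slc25a1 was at -0.01, the dicarboxylate carrier Slc25a10 at -0.07 and the oxoglutarate carrier Slc25a11 at -0.14. The call of Got2 held with each library left out. Acly lost its call when Nat10 cKO replicate 1 (0.27) or either WT library (0.30 without replicate 1, 0.28 without replicate 2) was dropped, and Gpt2 when WT replicate 2 was dropped (-0.31). DESeq2 ended both (0.29 for Acly and -0.41 for Gpt2). The list had 1 call in DESeq2, and also with WT replicate 2 dropped. Gpt2 also lost its call with upper-quartile factors (-0.30) and with library size only (-0.33). Pck1, Me3 and Gls2 had 0 to 5 counts per library and were not tested.

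Among genes that handle itaconate, Clybl, the mitochondrial lyase that breaks down its CoA product, rose by 0.54 (17.1 ± 1.05 CPM in Nat10 cKO and 11.8 ± 0.379 CPM in WT, edgeR adjusted p = 0.0165). Dropping Nat10 cKO replicate 1 (0.47) or WT replicate 2 (0.50) ended this call, as did DESeq2 (0.53). Rab32, a GTPase that brings itaconate to bacteria-containing vacuoles in macrophages, fell by 0.55 (220 ± 1.31 CPM in Nat10 cKO and 322 ± 6.08 CPM in WT, edgeR adjusted p = 0.000197) and held with each library left out. The itaconate receptor gene Oxgr1 had 0 counts in all 4 libraries, and Sugct had 2 to 8. D2hgdh, a 2-hydroxyglutarate dehydrogenase, did not pass (0.66, edgeR adjusted p = 0.0508).

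Transcription factors described as acting on Acod1 in macrophages were mostly lower in Nat10 cKO. Of 7, 5 fell, 1 rose and 1 did not pass (median log2 fold change -0.52), where 14.4% of all genes tested were called lower and 14.4% higher. The list was chosen with earlier results of these data known, and a link of these factors to the value of Acod1 was not tested. Irf1, an interferon-induced activator, fell by 1.27 (47.6 ± 2.39 CPM in Nat10 cKO and 115 ± 4.97 CPM in WT, edgeR adjusted p = 4.83e-08). Stat2 fell by 0.78 and Rela, an NF-kappa B subunit, fell by 0.54, and these calls held with each library left out, while Nfkb1 (-0.34) lost its call when Nat10 cKO replicate 2 (-0.27) or either WT library (-0.42 without replicate 1, -0.27 without replicate 2) was dropped, and under upper-quartile factors (-0.24) and library size only (-0.27). Tfeb, the lysosomal regulator, rose by 0.37, a call lost when Nat10 cKO replicate 1 (0.28) or either WT library (0.30 without replicate 1, 0.43 without replicate 2) was dropped and in DESeq2 (0.36), and Cebpb was at -0.03. Of 7 regulators of oxidative enzyme genes, 6 were tested. Esrra, an orphan nuclear receptor, fell by 0.45 (68.8 ± 7.47 CPM in Nat10 cKO and 94.4 ± 2.56 CPM in WT, edgeR adjusted p = 0.00391) and Myc rose by 0.76 (14.1 ± 1.74 CPM in Nat10 cKO and 8.29 ± 0.460 CPM in WT, edgeR adjusted p = 0.00408), and both calls held with each library left out. Ppargc1b (-0.12), Nrf1 (0.07), Gabpa (0.13) and Tfam (0.05) did not pass, and Ppargc1a had at most 3 counts per library.

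The genes whose profile over the 4 libraries was most like that of Acod1 were Ghdc, Ikbkb, a kinase of the NF-kappa B pathway, and Oas3, an interferon-induced antiviral enzyme. Likeness was the root mean square difference of log2 CPM, centred on each gene's mean of the 4 libraries, among 7768 other genes with at least 10 CPM, and it was 0.0148 for Ghdc, 0.0158 for Ikbkb and 0.0166 for Oas3. For Idh2 the nearest were Odc1, the ornithine decarboxylase (0.0132), Mpc2 (0.0223) and Itpr3 (0.0290). For Pcx they were Il18bp (0.00869), Snf8 (0.0180) and Trub2 (0.0280), and for Idh3a they were Olfm1 (0.0153), Glb1 (0.0182) and Tm6sf1 (0.0252). The nearest gene was Zfp639 for Cs, Scp2 for Idh1, Sh3bgrl for Ogdh, Gyg for Fh1 and Acads for Mdh2. With 4 libraries in 2 groups, this measure mainly finds genes with a like fold change and a like split of replicates.

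Marker genes, those of other cell types among them, moved with the groups, and their part in the values above was not tested. The counts of markers called below stand beside 14.4% of all genes tested called higher and 14.4% lower. Summed CPM of 10 stromal and osteoblast markers was 1076 and 1038 in Nat10 cKO and 295 and 279 in WT, with 9 of 10 higher and none at 0 in every library, though Sp7 was at 0 in both WT libraries. Summed CPM of 10 neutrophil markers was 809 and 910 in Nat10 cKO and 499 and 486 in WT, with 5 of 7 tested higher and 1 lower, and Ly6g at 0 in all libraries. Summed CPM of 8 dendritic cell and MHC class II markers was 176 and 191 in Nat10 cKO and 720 and 775 in WT, with 5 of 7 tested lower, all 5 of them MHC class II genes (H2-Aa, H2-Ab1, H2-Eb1, Cd74 and Ciita). The dendritic cell genes Zbtb46 (log2 fold change -0.24, edgeR adjusted p = 0.803) and Itgax (0.16, edgeR adjusted p = 0.435) did not pass, and Flt3 was not tested. The 10 macrophage markers summed to 30312 and 34173 CPM in Nat10 cKO and 19269 and 21244 CPM in WT, mostly Lyz2, with 5 higher and 2 lower. The 10 osteoclast markers summed to 6259 and 6977 CPM in Nat10 cKO and 4860 and 5128 CPM in WT, with 6 higher and 2 lower. Acod1 was lower in the libraries where the summed macrophage and osteoclast markers were higher. Called lower on those lists were Cd14 and Mrc1 (log2 fold changes -0.50 and -1.51) and Dcstamp and Calcr (-0.42 and -0.95). Whether any of these markers bear on the value of Acod1 was not tested.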

How the data were processed

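The authors deposited whole-number read counts, not normalized, in 1 table with Ensembl identifiers, symbols and GRCm39 coordinates. The submitters' processing notes name fastp 0.20.0, STAR 2.7.9a and featureCounts 2.0. The sources used here do not give the strand setting or annotation release, so overlapping or antisense genes cannot be told apart. Per the labels' protocols, ribosomal RNA was depleted. Columns were matched to samples by title and grouped by the genotype label.

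Of 21834 genes, 11448 passed the default rule of filterByExpr. With TMM factors and group as the only term, edgeR 4.0.16 (R 4.3.3) ran its two-sided quasi-likelihood test, with Benjamini-Hochberg adjustment over all genes tested and a threshold of 0.05. The SE is the absolute log2 fold change over the root of the F statistic. Alternatives were RLE and upper-quartile factors, library size only, 2 other filters, DESeq2 1.42.0, a replicate block and leaving out each library. Ratios used raw counts. Lengths are merged exons of GENCODE M21, and promoter windows are from RefSeq.

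The members, gene lists and motifs were chosen with earlier results of these data known. The genes named are the 9 members, Nat10, genes of the fixed lists and markers, and the 3 nearest genes by profile. Ratios beyond Idh1 to Idh2 and Acod1 to Sdha were added after the values were seen. Some genes of the lists are counted but not reported here by name.

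Replicates differed beyond sampling noise, with a chi-square of 11.2 per gene over 12175 genes in Nat10 cKO and 6.16 over 11776 genes in WT. The biological coefficient of variation was 8.28%. The test was checked on simulated counts in which 200 genes were changed. In the data 3302 genes were called, and the adjusted p depends on how many genes differ. The simulated rates therefore need not hold for these data. In the simulation the test recovered 48.5% of genes changed 1.5-fold, 87.9% of those changed 2-fold and 98.5% of those changed 4-fold. There were 6 false calls among 11107 unchanged genes. A gene that did not pass is therefore not shown to be unchanged.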

Additional observations from a re-analysis of the deposited data

How the results depend on the processing

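The 9 genes kept the sign of their fold change in all 11 alternatives, among them Acod1 from -0.77 to -0.63, Pcx from -0.73 to -0.38, Idh2 from 0.59 to 0.76 and Mdh2 from 0.10 to 0.34. Ogdh ranged from -0.19 to -0.08, the last with upper-quartile factors. The 9 genes were selected on this comparison and their groups did not overlap, so the kept signs are no support for the differences. The test called 3302 genes in all. DESeq2 called 2114 genes, 5 in the pyruvate list and 1 among anaplerotic and carrier genes. With 1 library left out, the counts ranged from 1837 to 3501 over all genes, 4 to 10 among the other cycle enzymes, 3 to 7 in the pyruvate list and 1 to 3 among anaplerotic and carrier genes. The split of 1652 higher and 1650 lower genes became 2247 and 1110 with upper-quartile factors and 2026 and 1252 with library size only. Nothing in the labels says that replicate numbers pair libraries, and same-numbered deviations correlated at 0.112 across genes. With the replicate number as a block, 4301 genes were called, 8 of the 9 members, 10 among the other cycle enzymes, 8 in the pyruvate list and 4 among anaplerotic and carrier genes. Fewer libraries enter when one is left out, and the cause of the other shifts was not tested.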
